A study of Mus musculus with 28 samples.

Results

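The first hours of exit from naive pluripotency were examined in mouse embryonic stem cells labelled Zfp281 knockout (KO), by setting cells 16 h after withdrawal of the 2i inhibitors against the same clones still in 2i, a stage labelled ESC. The comparison rests on 4 of the 28 RNA-seq libraries of the series, chosen by their labels: clones KO.1 and KO.2 at 16 h and at ESC, n = 2 clones per stage, paired by clone. All cells were of the female line RGd2, which carries the Rex1:GFPd2 reporter, and grew on gelatin in N2B27 medium. The ESC cells also received CHIR99021, which inhibits the kinase Gsk3, and PD0325901, which inhibits the Erk kinase Mek. The KO cells at 32 h (2 libraries) and wild-type (WT) cells at 16 h, 32 h and ESC (6 libraries) were used only to set beside this response. The WT cells are replicate 1, a line named WT, and replicate 2, a line named Zfp281_WT. That the line named WT had the same library kit as the KO cells is read from its plain title and is not stated for it. Each KO clone is a single clone, and the labels do not say which part of the gene was altered.

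Naive pluripotency is the state of the early epiblast, kept in culture by transcription factors such as Nanog, Esrrb and Tfcp2l1, by Wnt signalling that Gsk3 inhibition switches on, and by blocking the Fgf and Erk cascade. When both inhibitors are removed, cells shut down the naive factors, gain Erk activity and switch on formative genes such as Otx2, Pou3f1 and Fgf5. Zfp281 is a zinc finger transcription factor known in mouse stem cells for its part in this transition, and the series also studies the genes Ehmt1, whose enzyme methylates lysine 9 of histone H3, and Zic2, a zinc finger factor.

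The 4 libraries held 28538287 and 28614770 counts at 16 h, against 33143513 and 32571767 counts at ESC. The 16 h libraries were deposited in a table of their own, so stage and table cannot be told apart in this comparison. Levels are given as CPM, counts scaled to a common library size, for clone 1 and then clone 2, and a change is a log2 fold change of 16 h over ESC ± its standard error. Values from these bulk samples cannot tell fewer cells of a type from less RNA per cell. Zfp281 itself (chr1:136624901-136630391, GRCm38) had 344 and 332 CPM at 16 h, against 274 and 276 CPM at ESC, and both 16 h values were the higher ones, with a change of 0.30 ± 0.04 (adjusted p = 2.55e-05). Gene counts at this level do not check the KO label, since the altered part of the gene is not known. Of 8 stem cell markers, 7 were at 209 CPM or more in each of the 4 libraries, and Utf1, a chromatin-associated stem cell protein, had 27.04 and 18.5 CPM at 16 h, against 9.53 and 9.15 CPM at ESC. None of 11 fibroblast genes reached 5 CPM in a group, and their summed level was 10.5 and 9.33 CPM at 16 h, against 11.8 and 11.3 CPM at ESC. In the WT line Zfp281_WT, 89.0% of 1108 olfactory genes had a count at ESC and 87.0% at 32 h, against 8.94% to 24.8% in the other 10 libraries used here, so differences from WT cells are given with and without that line. Without it WT cells have 1 library per stage, which is assumed to vary like the KO clones, so counts and p-values without that line are no replicated test of WT cells.

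At 16 h, 2793 of 10659 tested genes were higher in KO cells than at ESC and 2788 were lower, by edgeR's quasi-likelihood test at a Benjamini-Hochberg adjusted p under 0.05. That is 52.4% of all tested genes, 26.2% in each direction, and the counts of listed genes below are read against these shares. At least 2-fold changes were fewer, with 254 genes higher (2.38%) and 248 lower (2.33%), or 4.71% together. The median change over all tested genes was -0.00035. Without clone 1 at ESC 3577 genes passed, and without clone 2 at ESC 3542 passed. The lists are groups of genes named by function, and a listed gene was tested only where it averaged 5 CPM at 16 h or at ESC.

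**Figure D1:**
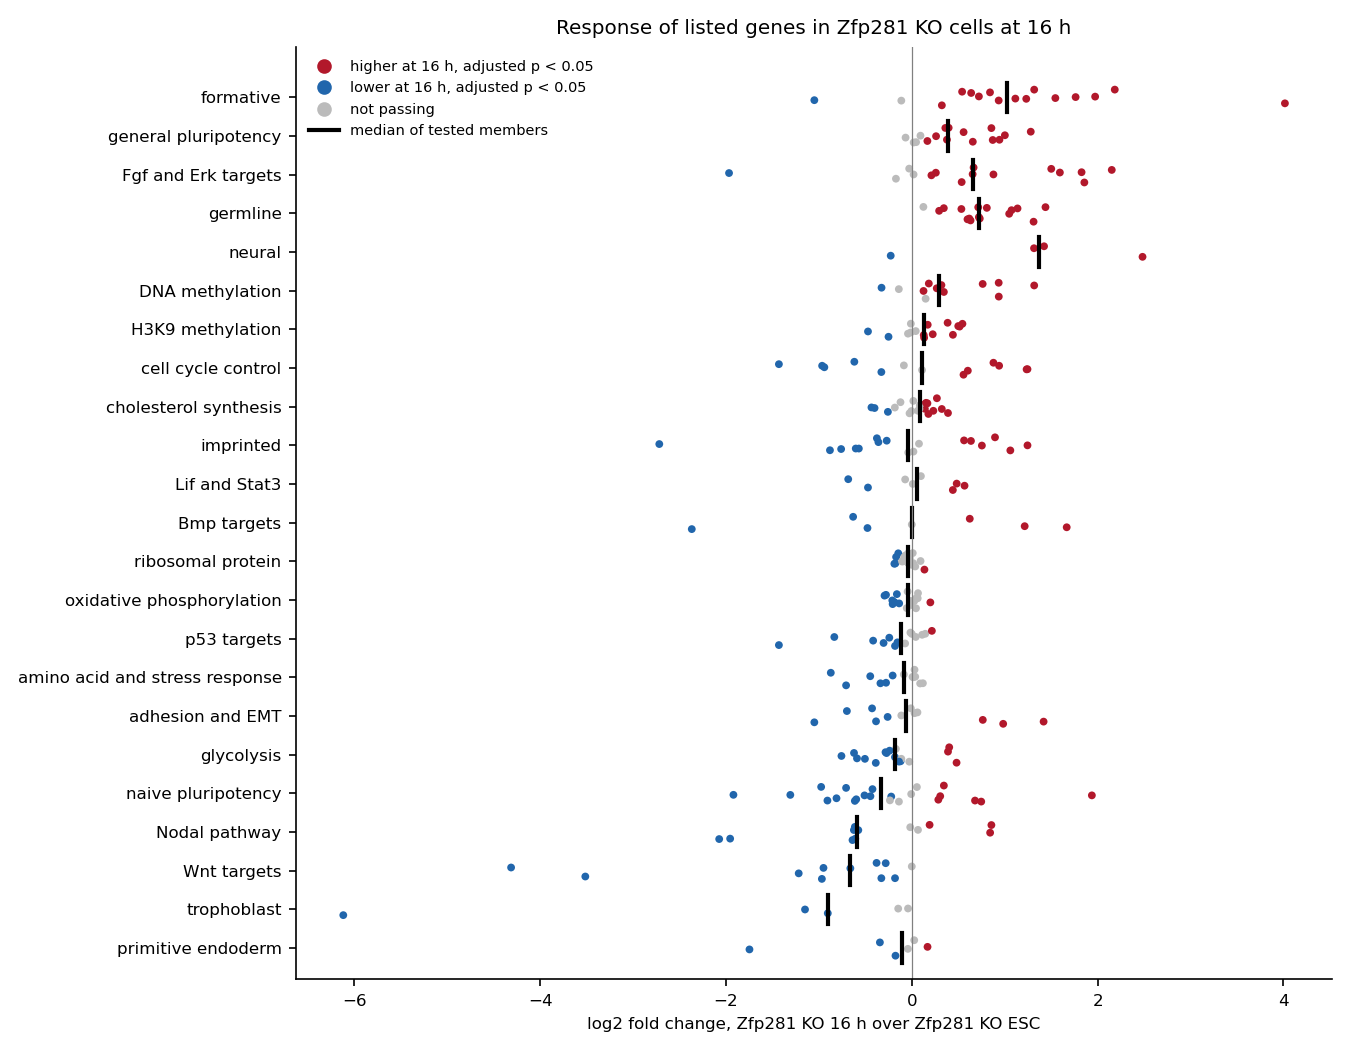
Log2 fold change of 16 h over ESC in Zfp281 KO cells for each tested member of 23 gene lists, with red points higher, blue points lower and grey points not passing an adjusted p of 0.05, and a black bar at the list's median. The formative list has its median at 1.02 and the Wnt target list at -0.66, while ribosomal protein genes lie close to 0.

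Most naive factors were lower at 16 h, but the group did not move as a block. Of 22 naive pluripotency genes, all tested, 12 fell, 6 rose and 4 did not pass, and the median change was -0.33. Tfcp2l1 (chr1:118627923-118685168), a transcription factor that sustains naive self-renewal, had 297 and 323 CPM at 16 h, against 742 and 796 CPM at ESC. Its 16 h values lay under 0.45 of the ESC values in both clones, a change of -1.31 ± 0.04 (adjusted p = 1.69e-12). Nanog, the homeodomain factor of the naive network, had 503 and 513 CPM at 16 h, against 952 and 959 CPM at ESC. The nuclear receptor gene Esrrb had 371 and 351 CPM at 16 h, against 620.0 and 649.8 CPM at ESC. For both genes the clones nearly coincided within a stage and the stages were far apart, with changes of -0.91 ± 0.04 (adjusted p = 8.56e-11) for Nanog and -0.81 ± 0.05 (adjusted p = 1.38e-09) for Esrrb. Tbx3, a T-box factor, had 75.7 and 67.4 CPM at 16 h, against 142 and 140.4 CPM at ESC, a change of -0.98 ± 0.07 (adjusted p = 2.85e-08). Spic, an Ets family factor, was the naive gene with the lowest fold change, at 4.69 and 4.04 CPM at 16 h, against 16.9 and 16.2 CPM at ESC, and a change of -1.92 ± 0.11 (adjusted p = 5.54e-10). Nr5a2, a nuclear receptor that can drive Pou5f1, changed by -0.71 ± 0.05 (adjusted p = 1.01e-08), Klf2, a Krüppel-like factor, by -0.60 ± 0.06 (adjusted p = 1.09e-06), and Tcl1, a co-activator of the kinase Akt, by -0.61 ± 0.06 (adjusted p = 3.06e-07).

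The members of the naive list that rose did so in both clones. Gbx2, a homeobox gene that Stat3 induces in stem cells, had 52.96 and 50.7 CPM at 16 h, against 12.4 and 14.8 CPM at ESC, with no overlap between stages and a change of 1.94 ± 0.09 (adjusted p = 1.93e-10). Nr0b1, an orphan nuclear receptor also called Dax1, had 202 and 208 CPM at 16 h, against 120.4 and 125 CPM at ESC. The 16 h libraries were again both above the ESC libraries, by 0.75 ± 0.05 (adjusted p = 3.94e-09). Morc1, known for silencing transposons in mouse male germ cells, changed by 0.68 ± 0.04 (adjusted p = 2.03e-09), and Tet2, which oxidises 5-methylcytosine, by 0.35 ± 0.04 (adjusted p = 4.47e-06). Zfp42, the gene of Rex1 at whose locus the reporter sits, had 510.1 and 464 CPM at 16 h, against 496 and 484 CPM at ESC. Its stages overlapped, and its change was -0.01 ± 0.04 (adjusted p = 0.918).

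**Figure D2:**
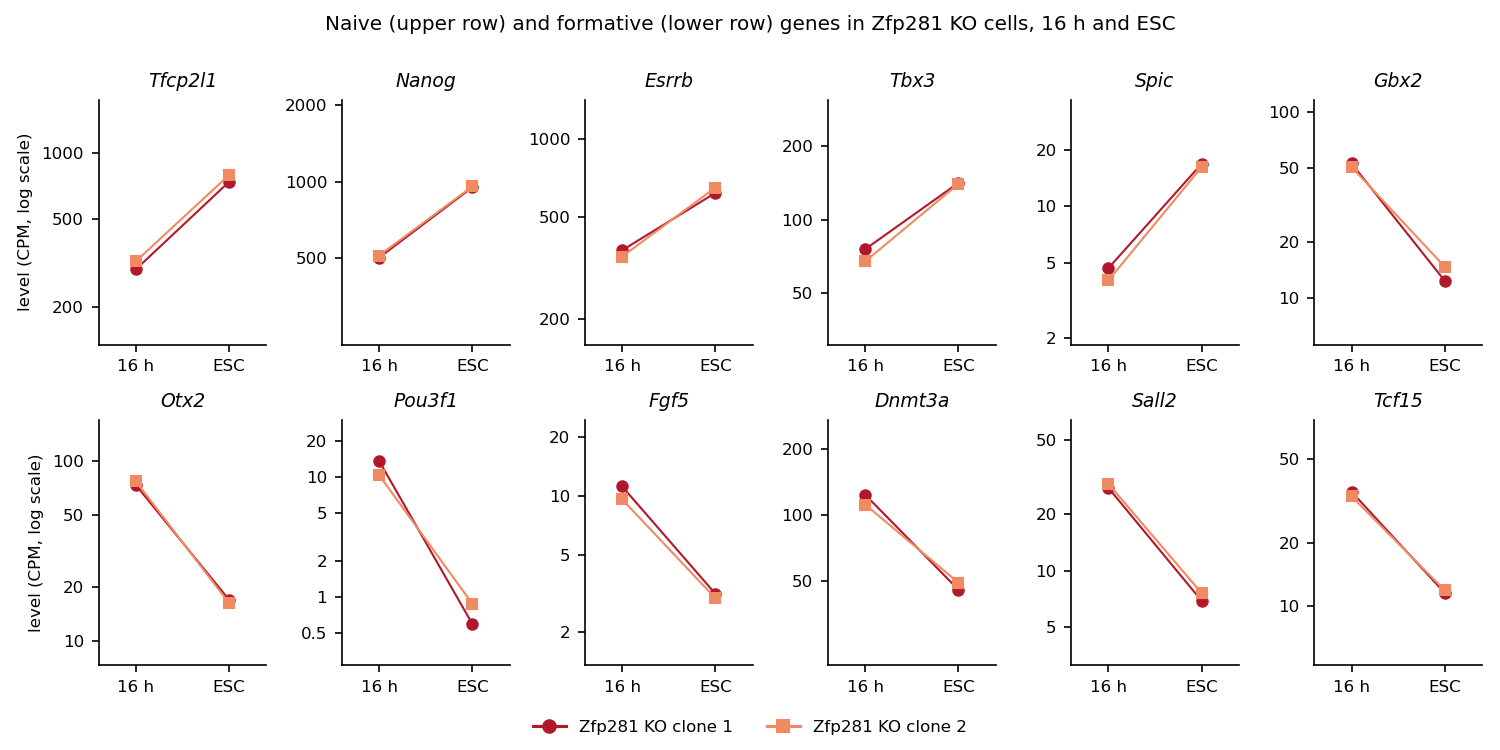
Level in CPM on a log scale of 6 naive list genes (upper row) and 6 formative genes (lower row) in Zfp281 KO clones 1 and 2, with 16 h left of ESC and a line joining the libraries of a clone. Tfcp2l1, Nanog, Esrrb, Tbx3 and Spic are lower at 16 h and Gbx2 is higher, while all 6 formative genes are higher at 16 h, and the lines of the clones nearly coincide.

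The core factors shared by naive and later pluripotent states rose or did not pass the test. Of 16 general pluripotency genes, all tested, 12 rose, 0 fell and 4 did not pass, with a median change of 0.39. Pou5f1, the central POU factor, had 951 and 1029 CPM at 16 h, against 943 and 979 CPM at ESC, and its partner Sox2 had 531 and 518 CPM at 16 h, against 546 and 556 CPM at ESC. The changes were 0.05 ± 0.04 (adjusted p = 0.373) and -0.07 ± 0.04 (adjusted p = 0.2), so neither passed. Dppa2 (chr16:48310274-48319513) and Dppa4 encode partner proteins that keep chromatin at developmental promoters open to activation. Dppa2 had 306 and 313 CPM at 16 h, against 149.7 and 160.1 CPM at ESC, and Dppa4 had 202 and 226 CPM at 16 h, against 110.0 and 113 CPM at ESC. Both neighbours rose without overlap between stages, by 1.00 ± 0.04 (adjusted p = 4.16e-11) and 0.94 ± 0.05 (adjusted p = 2.38e-10). Tdgf1, the Nodal co-receptor Cripto, had 1158 and 1222 CPM at 16 h, against 654 and 663 CPM at ESC, a rise of 0.86 ± 0.04 (adjusted p = 1.80e-10). Utf1 rose by 1.28 ± 0.15 (adjusted p = 4.12e-05), the zinc finger gene Sall1 by 0.87 ± 0.05 (adjusted p = 1.83e-09) and L1td1, an RNA-binding protein derived from a Line-1 element, by 0.66 ± 0.06 (adjusted p = 1.03e-07). Lin28a, which blocks maturation of the let-7 microRNAs, had 96.9 and 101 CPM at 16 h, against 73.6 and 79.1 CPM at ESC, and rose by 0.38 ± 0.06 (adjusted p = 2.80e-05).

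Formative genes formed the list with the largest median among the pluripotency lists, at 1.02. Of 18 genes, 16 were tested, of which 14 rose, 1 fell and 1 did not pass. Pou3f1, the POU factor Oct6, had 13.5 and 10.3 CPM at 16 h, against 0.594 and 0.876 CPM at ESC. It was under 1 CPM at ESC in both clones and rose by 4.02 ± 0.19 (adjusted p = 7.08e-11). Otx2 (chr14:48656781-48667644), the homeodomain factor that redirects Pou5f1 to new enhancers, had 73.3 and 76.8 CPM at 16 h, against 16.9 and 16.2 CPM at ESC. The 16 h values were over 4 times the ESC values in each clone, a change of 2.18 ± 0.07 (adjusted p = 9.18e-13). Fgf5, a growth factor of the post-implantation epiblast, had 11.2 and 9.61 CPM at 16 h, against 3.15 and 2.99 CPM at ESC, and rose by 1.76 ± 0.14 (adjusted p = 2.27e-08). Sall2, a zinc finger factor, had 27.6 and 29.03 CPM at 16 h, against 6.89 and 7.58 CPM at ESC, and Tcf15, a bHLH factor that primes cells for differentiation, had 35.1 and 33.3 CPM at 16 h, against 11.6 and 11.9 CPM at ESC. In both genes the clones differed little and the stages did not overlap, with changes of 1.97 ± 0.08 (adjusted p = 2.45e-11) and 1.55 ± 0.09 (adjusted p = 7.06e-10). The remaining genes named here rose less. Grhl2, a factor that opens epithelial enhancers, changed by 1.23 ± 0.05 (adjusted p = 2.45e-11), Lef1, a nuclear partner of beta-catenin, by 1.11 ± 0.06 (adjusted p = 3.24e-10), the proto-oncogene kinase Pim2 by 0.84 ± 0.10 (adjusted p = 3.39e-06), the forkhead factor Foxd3 by 0.72 ± 0.08 (adjusted p = 8.19e-07) and Sox11 by 0.54 ± 0.07 (adjusted p = 9.34e-06). The listed gene that fell was Cdh2, which encodes N-cadherin, with 7.07 and 8.15 CPM at 16 h, against 15.1 and 16.4 CPM at ESC, and a change of -1.05 ± 0.09 (adjusted p = 1.46e-07).

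Most listed Wnt target genes fell after both inhibitors were removed together, while Lef1, counted in the formative list, rose. Of 18 Wnt target genes 11 were tested, and 10 fell, 0 rose and 1 did not pass, with a median change of -0.66. Axin2 (chr11:108917828-108950783), a scaffold of the beta-catenin destruction complex induced by the pathway itself, had 51.7 and 47.5 CPM at 16 h, against 101 and 90.9 CPM at ESC. Levels at 16 h were close to 0.5 of those at ESC in both clones, with a change of -0.95 ± 0.06 (adjusted p = 8.30e-10). The receptor gene Tnfrsf19 had 28.2 and 31.6 CPM at 16 h, against 66.1 and 73.3 CPM at ESC, and changed by -1.22 ± 0.06 (adjusted p = 2.14e-10), and Nkd1, a feedback inhibitor, changed by -0.97 ± 0.16 (adjusted p = 0.000122). Tcf7, a transcription factor partner of beta-catenin, had 23.5 and 17.4 CPM at 16 h, against 33.5 and 31.1 CPM at ESC, and fell, with a change of -0.66 ± 0.09 (adjusted p = 1.30e-05). The caudal homeobox gene Cdx1 had 0.245 and 0.278 CPM at 16 h, against 4.96 and 5.62 CPM at ESC. It was under 0.3 CPM in both 16 h libraries, and its change was -4.31 ± 0.27 (adjusted p = 1.74e-09). Outside the list, the ligand gene Wnt5b had 0.875 and 1.18 CPM at 16 h, against 10.7 and 10.5 CPM at ESC, with a change of -3.35 ± 0.17 (adjusted p = 1.93e-10), and the homeobox gene Nkx1-2 had 2.34 and 2.40 CPM at 16 h, against 36.8 and 34.3 CPM at ESC, with a change of -3.90 ± 0.11 (adjusted p = 4.17e-13). These genes were lower in every 16 h library than in any ESC library.

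Most tested targets and feedback inhibitors of Fgf and Erk signalling rose after both inhibitors were removed together. Of 20 genes 15 were tested, of which 11 rose, 1 fell and 3 did not pass, and the median change was 0.65. Without clone 1 at 16 h 2 genes fell. Dusp6 (chr10:99263231-99267489), a phosphatase that inactivates Erk, had 96.8 and 107 CPM at 16 h, against 20.7 and 25.5 CPM at ESC. Etv4, an Ets factor induced by Fgf, had 61.3 and 66.8 CPM at 16 h, against 17.1 and 19.1 CPM at ESC. Spry4, a Sprouty inhibitor of the cascade, had 99.8 and 96.6 CPM at 16 h, against 24.1 and 30.4 CPM at ESC. In each of the 3 genes both 16 h libraries were over 3 times any ESC library, with changes of 2.15 ± 0.06 (adjusted p = 4.95e-13), 1.83 ± 0.07 (adjusted p = 7.62e-12) and 1.86 ± 0.07 (adjusted p = 1.36e-11). Dusp4, a nuclear phosphatase of Erk, had 38.8 and 42.8 CPM at 16 h, against 13.2 and 13.9 CPM at ESC, and rose by 1.59 ± 0.07 (adjusted p = 4.61e-11). Phlda1 had 7.28 and 6.34 CPM at 16 h, against 1.84 and 2.99 CPM at ESC, and rose by 1.50 ± 0.18 (adjusted p = 3.78e-06). Smaller rises were seen for the growth regulator Myc, by 0.88 ± 0.12 (adjusted p = 4.52e-05), the inhibitor Spry2, by 0.67 ± 0.07 (adjusted p = 1.29e-06), and the Ets factor Etv1, by 0.54 ± 0.08 (adjusted p = 3.52e-05). Egr1, an immediate-early zinc finger factor, was the member that fell, with 4.72 and 2.51 CPM at 16 h, against 14.8 and 13.4 CPM at ESC, and a change of -1.97 ± 0.15 (adjusted p = 3.51e-08).

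Genes of the Lif, Nodal and Bmp pathways moved in both directions. Of 12 Lif and Stat3 genes 8 were tested, and 3 rose, 2 fell and 3 did not pass, with a median of 0.05. Il6st, the gp130 co-receptor for Lif, had 85.3 and 85.8 CPM at 16 h, against 136 and 139.5 CPM at ESC, and fell, with a change of -0.68 ± 0.05 (adjusted p = 1.34e-08). Stat3, its transcription factor, had 22.4 and 20.99 CPM at 16 h, against 29.7 and 30.6 CPM at ESC, and changed by -0.47 ± 0.08 (adjusted p = 7.08e-05), while the Stat3-induced kinase gene Pim1 rose by 0.48 ± 0.07 (adjusted p = 3.85e-05). Of 14 Nodal pathway genes 12 were tested, with 3 higher, 7 lower, 2 not passing and a median of -0.59. The Nodal inhibitor gene Lefty2 had 3.25 and 2.85 CPM at 16 h, against 12.7 and 11.1 CPM at ESC. The activin antagonist gene Fst had 1.64 and 1.88 CPM at 16 h, against 7.43 and 7.46 CPM at ESC. Both inhibitors were lower in each 16 h library than in any ESC library, with changes of -1.95 ± 0.12 (adjusted p = 1.48e-09) and -2.07 ± 0.16 (adjusted p = 1.54e-08). Smad7, an inhibitory Smad, changed by -0.61 ± 0.05 (adjusted p = 8.88e-08) and Skil, a Smad co-repressor, by 0.84 ± 0.05 (adjusted p = 3.95e-10). Of 12 Bmp target genes 7 were tested, and 3 rose and 3 fell, with a median of 0.00. Id4, which encodes an inhibitor of bHLH factors, had 4.09 and 4.21 CPM at 16 h, against 21.1 and 21.9 CPM at ESC, and fell, with a change of -2.37 ± 0.10 (adjusted p = 3.00e-11). Its relative Id3 had 15.8 and 13.02 CPM at 16 h, against 21.7 and 22.9 CPM at ESC, and fell, with a change of -0.63 ± 0.09 (adjusted p = 3.91e-05), but Id2 had 6.26 and 6.02 CPM at 16 h, against 2.64 and 2.66 CPM at ESC, and rose by 1.21 ± 0.14 (adjusted p = 3.07e-06). Dusp9, a Bmp-induced Erk phosphatase, had 82.1 and 88.4 CPM at 16 h, against 24.4 and 29.6 CPM at ESC, with a rise of 1.67 ± 0.07 (adjusted p = 1.09e-11).

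Most genes of DNA methylation rose. Of 12 genes, all tested, 9 rose, 1 fell and 2 did not pass, with a median of 0.29. The gene that fell was the repair glycosylase gene Mbd4, and the lower count was 2 without clone 1 at 16 h and 0 without clone 1 at ESC. Dnmt3a (chr12:3801559-3914443) and Dnmt3b, the enzymes that place new methyl groups on DNA, had 123 and 111 CPM at 16 h, against 45.4 and 48.9 CPM at ESC for Dnmt3a and 232 and 207 CPM at 16 h, against 116 and 114 CPM at ESC for Dnmt3b. Their catalytically inactive partner Dnmt3l had 397 and 388 CPM at 16 h, against 206 and 206 CPM at ESC. All 3 rose without overlap between stages, by 1.32 ± 0.06 (adjusted p = 9.99e-11), 0.94 ± 0.05 (adjusted p = 2.88e-10) and 0.94 ± 0.05 (adjusted p = 1.62e-10). Tet1, which oxidises methylated cytosine, had 574 and 593 CPM at 16 h, against 337 and 352 CPM at ESC, and rose by 0.76 ± 0.04 (adjusted p = 4.55e-10). The maintenance enzyme gene Dnmt1 changed by only 0.27 ± 0.04 (adjusted p = 6.62e-05).

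Among 15 genes of histone H3 lysine 9 methylation, all tested, 9 rose, 2 fell and 4 did not pass, with a median of 0.13. Without clone 1 at ESC or without clone 2 at ESC 5 rose. Ehmt1 had 138 and 133 CPM at 16 h, against 104 and 103 CPM at ESC, and its partner enzyme gene Ehmt2 had 158 and 149 CPM at 16 h, against 108 and 108 CPM at ESC. Both rose, by 0.39 ± 0.05 (adjusted p = 6.12e-06) and 0.51 ± 0.05 (adjusted p = 2.88e-07), and Zic2 rose by 0.32 ± 0.06 (adjusted p = 0.000148). The Setdb1 cofactor gene Atf7ip changed by 0.55 ± 0.06 (adjusted p = 2.18e-06) and the demethylase gene Kdm4c by 0.50 ± 0.05 (adjusted p = 1.46e-07). Setdb1, a lysine 9 methyltransferase that silences retroviral elements, and the demethylase gene Kdm3b were the members that fell, with changes of -0.25 ± 0.05 (adjusted p = 0.000239) and -0.47 ± 0.05 (adjusted p = 5.62e-07).

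Genes of germ cell development and meiosis moved together. Their promoters are known in mouse stem cells as targets of a repressive Polycomb complex that holds the DNA-binding proteins Mga, Max and E2f6, which read the E-box CACGTG and E2F-type letters such as TCCCGC. Of 22 germline genes 16 were tested, and 15 rose, 0 fell and 1 did not pass, with a median of 0.72. The rise was also seen in WT cells, where 17 of 18 tested germline genes rose, with a median of 1.02. The KO minus WT difference of response was negative for 2, positive for 0 and did not pass for 16. These counts moved when single libraries were left out, and 2 of the 18 genes were tested only through their WT level. The promoter windows of 4 members are shown, since the letters these proteins read occur in them. They run from 250 bases before to 50 bases after the RefSeq start (GRCm38.p6), 5′ to 3′ on the strand of the gene, in lower case with CACGTG and with TCCCGC or its reverse complement GCGGGA in capitals: Smc1b at chr15:85131908-85132207 on the minus strand, Mael at chr1:166238695-166238994 on the minus strand, Hormad1 at chr3:95559427-95559726 on the plus strand, the first of 2 annotated starts, and Stag3 at chr5:138280259-138280558 on the plus strand.
Smc1b: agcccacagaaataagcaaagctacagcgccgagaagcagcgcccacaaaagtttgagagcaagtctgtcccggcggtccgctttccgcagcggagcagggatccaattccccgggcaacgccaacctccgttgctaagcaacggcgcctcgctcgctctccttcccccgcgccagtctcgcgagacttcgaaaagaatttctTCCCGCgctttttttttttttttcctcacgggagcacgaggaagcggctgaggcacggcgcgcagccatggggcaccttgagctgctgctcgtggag
Mael: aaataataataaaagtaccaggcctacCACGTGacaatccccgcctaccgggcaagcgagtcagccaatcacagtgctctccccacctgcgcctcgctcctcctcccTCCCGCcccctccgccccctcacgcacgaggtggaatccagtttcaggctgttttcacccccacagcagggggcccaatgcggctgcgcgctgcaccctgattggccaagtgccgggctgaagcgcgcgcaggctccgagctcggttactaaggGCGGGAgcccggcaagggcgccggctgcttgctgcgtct
Hormad1: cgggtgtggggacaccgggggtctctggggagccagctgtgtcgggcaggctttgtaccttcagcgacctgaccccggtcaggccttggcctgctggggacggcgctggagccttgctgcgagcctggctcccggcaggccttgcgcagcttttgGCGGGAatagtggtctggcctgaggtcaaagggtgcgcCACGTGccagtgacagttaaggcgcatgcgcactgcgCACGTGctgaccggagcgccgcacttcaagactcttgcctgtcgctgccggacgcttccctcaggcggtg
Stag3: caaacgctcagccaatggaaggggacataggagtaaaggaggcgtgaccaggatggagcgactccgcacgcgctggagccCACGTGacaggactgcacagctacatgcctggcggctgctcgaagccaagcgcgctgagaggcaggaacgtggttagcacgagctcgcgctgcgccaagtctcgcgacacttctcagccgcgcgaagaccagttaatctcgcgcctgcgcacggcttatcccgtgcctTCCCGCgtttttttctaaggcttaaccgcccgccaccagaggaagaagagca
The Smc1b window holds TCCCGC but no CACGTG, and the others hold both. Of the 19 germline genes with a window, 11 (57.9%) held CACGTG on either strand, against 8.09% of 27025 genes with a window. TCCCGC or its reverse complement occurred in 9 of the 19 (47.4%), against 22.05% of all. In these 4 windows no match of one motif overlaps a match of the other. Both motifs were chosen with the values known, and a match describes the window without showing that a factor binds there. The 19 genes were taken from the list whether or not they rose, so these shares say nothing about the 16 h response.

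Smc1b, a cohesin subunit of meiosis, had 33.7 and 31.7 CPM at 16 h, against 12.95 and 11.3 CPM at ESC. The 16 h values were over 2 times the ESC values in each clone, a rise of 1.44 ± 0.08 (adjusted p = 3.12e-10). Stag3, another meiotic cohesin subunit, had 55.7 and 56.4 CPM at 16 h, against 37.7 and 34.9 CPM at ESC. Hormad1, which marks unsynapsed chromosome axes, had 121 and 126 CPM at 16 h, against 72.7 and 78.2 CPM at ESC. Mael, a piRNA pathway protein, had 18.6 and 19.5 CPM at 16 h, against 10.6 and 11.3 CPM at ESC. These 3 genes rose without overlap between stages, by 0.63 ± 0.06 (adjusted p = 6.06e-07), 0.72 ± 0.05 (adjusted p = 1.04e-08) and 0.81 ± 0.08 (adjusted p = 7.11e-07). On the X chromosome, Tex11, a meiotic recombination gene, had 22.8 and 26.9 CPM at 16 h, against 10.6 and 9.48 CPM at ESC, and rose by 1.31 ± 0.10 (adjusted p = 1.53e-08), and Taf7l, a germ cell variant of a general transcription factor subunit, had 22.6 and 21.4 CPM at 16 h, against 10.4 and 10.5 CPM at ESC, and rose by 1.07 ± 0.09 (adjusted p = 3.90e-08). Piwil2, a piRNA-binding protein, changed by 1.14 ± 0.11 (adjusted p = 2.48e-07) and the RNA-binding protein gene Dazl by 0.53 ± 0.07 (adjusted p = 1.56e-05). Stra8, the retinoic acid-induced gatekeeper of meiosis, was not on the list but had the largest fold change among the genes the naming rule took. It had 8.71 and 11.4 CPM at 16 h, against 0.475 and 0.332 CPM at ESC, under 0.5 CPM at ESC in both clones, and changed by 4.62 ± 0.21 (adjusted p = 6.28e-11).

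Markers of other lineages gave no uniform picture. Of 12 neural genes 4 were tested, and 3 rose and 1 fell. The gene that fell was Nes, with 22.04 and 21.2 CPM at 16 h, against 24.5 and 26.3 CPM at ESC, and a change of -0.23 ± 0.08 (adjusted p = 0.0231), and none fell without clone 2 at 16 h, without clone 1 at ESC or without clone 2 at ESC. Sox1 had 17.2 and 18.03 CPM at 16 h, against 6.77 and 7.43 CPM at ESC, and Pax6, an eye and forebrain regulator, had 27.6 and 30.2 CPM at 16 h, against 10.2 and 11.4 CPM at ESC, with changes of 1.32 ± 0.09 (adjusted p = 7.89e-09) and 1.42 ± 0.08 (adjusted p = 6.10e-10). Lrp2, a large endocytic receptor, had 265 and 340.1 CPM at 16 h, against 50.4 and 57.7 CPM at ESC, and rose by 2.48 ± 0.06 (adjusted p = 9.57e-14). The neural genes Hes5, Neurog2 and Fabp7 stayed under 0.2 CPM in all 4 libraries. Of 16 primitive endoderm genes 6 were tested, with 1 higher and 3 lower, or 0 higher and 1 lower without clone 1 at ESC. None was higher without clone 1 at 16 h or without clone 2 at ESC. Lama1, a laminin chain, had 13.9 and 13.4 CPM at 16 h, against 44.8 and 46.9 CPM at ESC, and fell, with a change of -1.75 ± 0.08 (adjusted p = 3.86e-11), while the defining factors Gata6, Gata4 and Sox17 were under 2 CPM in each of the 4 libraries. The summed level of that list was 347 and 335 CPM at 16 h, against 391 and 398 CPM at ESC. Of 10 trophoblast genes 5 were tested, and 3 fell. Cdx2 had 0.140 and 0.139 CPM at 16 h, against 9.89 and 10.1 CPM at ESC, the lowest fold change of all genes the naming rule took, at -6.12 ± 0.26 (adjusted p = 2.27e-11). Tead4 changed by -1.15 ± 0.10 (adjusted p = 8.04e-08) and Tfap2c by -0.90 ± 0.08 (adjusted p = 2.10e-07). Of 11 primitive streak genes 2 were tested, of which T, the Brachyury gene and a Wnt target, fell, and 2 fell without clone 1 at 16 h. Of 11 genes of the 2-cell-like state 4 were tested, and Zscan4d and Tmem92 rose, or 1 of them without clone 2 at 16 h or at ESC. The part of other cell types in these changes was not tested.

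Genes of cell adhesion were mixed. Of 14 genes 12 were tested, with 3 higher, 5 lower and 4 not passing, and a median of -0.06. Epcam had 329 and 316 CPM at 16 h, against 163 and 164 CPM at ESC, and the epithelial splicing factor gene Esrp1 had 47.1 and 41.4 CPM at 16 h, against 16.96 and 16.2 CPM at ESC. They rose by 0.98 ± 0.05 (adjusted p = 1.21e-10) and 1.42 ± 0.07 (adjusted p = 1.07e-10), and P-cadherin gene Cdh3 rose by 0.76 ± 0.07 (adjusted p = 2.53e-07). E-cadherin gene Cdh1 had 499.7 and 466 CPM at 16 h, against 468 and 460.1 CPM at ESC, with a change of 0.06 ± 0.04 (adjusted p = 0.249) that did not pass. The neural adhesion molecule gene Ncam1 changed by -0.70 ± 0.05 (adjusted p = 1.01e-08) and the fibronectin gene Fn1 by -0.43 ± 0.04 (adjusted p = 6.33e-07).

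Glycolytic genes were mostly lower. Of 17 genes, all tested, 11 fell, 3 rose and 3 did not pass, with a median of -0.18, and 7 fell without clone 2 at ESC. Slc2a3, a glucose transporter, had 893 and 1001 CPM at 16 h, against 1561 and 1643 CPM at ESC. Both 16 h values were under 0.65 of either ESC value, a change of -0.76 ± 0.04 (adjusted p = 8.69e-10). Ldha, which makes lactate from pyruvate, had 180.4 and 154 CPM at 16 h, against 267 and 249 CPM at ESC, and fell, with a change of -0.62 ± 0.05 (adjusted p = 1.02e-07), while the glycolytic enzyme genes Pgk1 and Tpi1 changed by -0.59 ± 0.04 (adjusted p = 1.42e-08) and -0.50 ± 0.05 (adjusted p = 7.24e-07). In the other direction, the transporter gene Slc2a1 had 375 and 359 CPM at 16 h, against 264 and 263 CPM at ESC, and rose by 0.48 ± 0.05 (adjusted p = 2.18e-07), and the hexokinase gene Hk2 rose by 0.40 ± 0.05 (adjusted p = 1.23e-05). Of 20 cholesterol synthesis genes 9 rose and 3 fell, with a median of 0.08, and 3 rose without clone 1 at ESC and 4 without clone 2 at ESC. Of 17 oxidative phosphorylation genes 7 fell, with 3 lower without clone 1 at ESC and 3 without clone 2 at ESC. Of 22 ribosomal protein genes 1 rose, 4 fell and 17 did not pass, and both the higher and the lower count moved when single libraries were left out.

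Stress and cell cycle genes changed in part. Of 15 amino acid and stress response genes 13 were tested, and 6 fell, 0 rose and 7 did not pass. Without clone 1 at ESC 3 fell, and without clone 2 at 16 h 1 rose. Asns, the asparagine synthetase gene, had 437 and 444 CPM at 16 h, against 796 and 821 CPM at ESC, a change of -0.87 ± 0.04 (adjusted p = 1.42e-10), and the stress factor gene Ddit3 had 9.27 and 9.75 CPM at 16 h, against 13.9 and 17.4 CPM at ESC, and fell, with a change of -0.71 ± 0.10 (adjusted p = 1.66e-05). Of 15 p53 targets 14 were tested, with 7 lower and 1 higher, or 4 lower without clone 1 at ESC. The higher count was 2 without clone 1 at 16 h or without clone 2 at 16 h, and 0 without clone 2 at ESC. Cdkn1a, the cyclin-dependent kinase inhibitor p21, had 11.6 and 8.39 CPM at 16 h, against 28.01 and 25.9 CPM at ESC. Phlda3, an inhibitor of Akt, had 21.9 and 22.2 CPM at 16 h, against 39.4 and 39.4 CPM at ESC. Neither gene overlapped between stages, with changes of -1.43 ± 0.10 (adjusted p = 5.69e-09) and -0.83 ± 0.07 (adjusted p = 5.92e-08). Of 13 cell cycle genes 6 rose and 5 fell. Cyclin gene Ccnd2 rose by 1.24 ± 0.13 (adjusted p = 1.13e-05) and Ccne1 by 0.94 ± 0.06 (adjusted p = 1.64e-09), while the kinase gene Cdk6 fell, with a change of -0.96 ± 0.06 (adjusted p = 2.07e-09). Within the Myc family, Mycn changed by 0.60 ± 0.05 (adjusted p = 9.64e-08) and Mycl by -0.94 ± 0.11 (adjusted p = 2.79e-06).

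Imprinted genes split. Of 22 genes 17 were tested, and 6 rose, 8 fell and 3 did not pass, with a median of -0.04. Plagl1, a zinc finger regulator of growth, had 14.2 and 15.9 CPM at 16 h, against 96.6 and 102 CPM at ESC. It fell by the largest amount of the list in both clones, with a change of -2.72 ± 0.08 (adjusted p = 6.97e-13). The noncoding RNA genes Meg3, Rian and Mirg lie side by side on chromosome 12 and are transcribed from the maternal copy. Meg3 had 83.2 and 82.7 CPM at 16 h, against 155 and 128 CPM at ESC, Rian had 263 and 258 CPM at 16 h, against 439 and 359 CPM at ESC, and Mirg had 51.5 and 55.9 CPM at 16 h, against 84.03 and 75.96 CPM at ESC. All 3 were lower in every 16 h library, with changes of -0.76 ± 0.06 (adjusted p = 3.26e-08), -0.60 ± 0.06 (adjusted p = 2.28e-07) and -0.57 ± 0.06 (adjusted p = 2.00e-06). H19 had 55.8 and 36.2 CPM at 16 h, against 24.9 and 18.9 CPM at ESC, and rose by 1.06 ± 0.08 (adjusted p = 2.29e-08), Cdkn1c, a cell cycle inhibitor, rose by 1.25 ± 0.14 (adjusted p = 1.62e-06), and Peg3, a paternally expressed zinc finger gene, by 0.90 ± 0.05 (adjusted p = 2.60e-10).

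Beyond the lists, the largest changes at 16 h were in genes with little or no transcript at one of the stages. The naming rule took the 15 largest rises and the 15 largest falls, and some of them are given above. Btla (chr16:45223705-45252895), a receptor of the immunoglobulin family, had 1.61 and 1.95 CPM at 16 h, against 43.8 and 47.1 CPM at ESC. Pglyrp1, a peptidoglycan recognition protein, had 1.05 and 0.940 CPM at 16 h, against 25.99 and 26.1 CPM at ESC. Trpm1, a cation channel, had 1.43 and 1.29 CPM at 16 h, against 24.8 and 24.8 CPM at ESC. All 3 were detected well at ESC in both clones and were under 2 CPM at 16 h, with changes of -4.67 ± 0.11 (adjusted p = 1.00e-13), -4.70 ± 0.14 (adjusted p = 6.09e-13) and -4.18 ± 0.15 (adjusted p = 2.98e-12). The sphingosine phosphate receptor gene S1pr1 changed by -4.02 ± 0.23 (adjusted p = 6.11e-10), Cttnbp2 by -3.34 ± 0.16 (adjusted p = 7.17e-11), the adhesion molecule gene Nrcam by -2.66 ± 0.08 (adjusted p = 6.29e-13) and the stem cell surface protein gene Prom1 by -2.54 ± 0.10 (adjusted p = 1.25e-11).

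In the other direction, Myrf (chr19:10208271-10240777), a membrane-bound transcription factor known from oligodendrocytes, had 42.5 and 36.6 CPM at 16 h, against 3.80 and 4.38 CPM at ESC. Its 16 h values were over 8 times the ESC values in each clone, a rise of 3.28 ± 0.10 (adjusted p = 9.67e-13). Tnfsf11, the ligand known as Rankl, had 11.5 and 12.5 CPM at 16 h, against 1.07 and 1.57 CPM at ESC, and Cass4, an adhesion scaffold, had 20.1 and 21.7 CPM at 16 h, against 3.06 and 3.77 CPM at ESC. Neither overlapped between stages, with changes of 3.19 ± 0.14 (adjusted p = 4.48e-11) and 2.62 ± 0.10 (adjusted p = 1.17e-11). The sodium pump subunit gene Atp1a4 rose by 4.20 ± 0.26 (adjusted p = 1.39e-09), the ciliary neurotrophic factor receptor gene Cntfr by 3.21 ± 0.20 (adjusted p = 1.70e-09), the calcium channel gene Itpr2 by 3.04 ± 0.15 (adjusted p = 1.46e-10) and the cytokine gene Il33 by 2.84 ± 0.23 (adjusted p = 3.22e-08).

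The median gap between the clones' log2 ratios over the 10659 tested genes was 0.10, and 5 genes had a gap of 1 or more. Across these genes the ratios of clone 1 and clone 2 had a Pearson r of 0.93, which describes genes within shared libraries and not independent replicates. Of the 5581 genes that passed, 5580 moved in the same direction in both clones, and all 502 with at least 2-fold changes had 16 h and ESC libraries that did not overlap, which their choice by a test on these same clones largely fixes. The genes with the largest gaps between clones included the small nucleolar RNAs Snord82, Snord87, Snora74a and Snord47, and also T, Mir6236, Lars2, Elf4 and Usp26. The levels were, for example, Snord82 at 7.14 and 27.4 CPM at 16 h, against 15.1 and 18.8 CPM at ESC, and Snord87 at 19.4 and 57.7 CPM at 16 h, against 51.8 and 61.0 CPM at ESC. Small nucleolar, small nuclear and small Cajal body RNA genes together took 0.109% and 0.121% of counts at 16 h, against 0.151% and 0.152% at ESC.

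**Figure D3:**
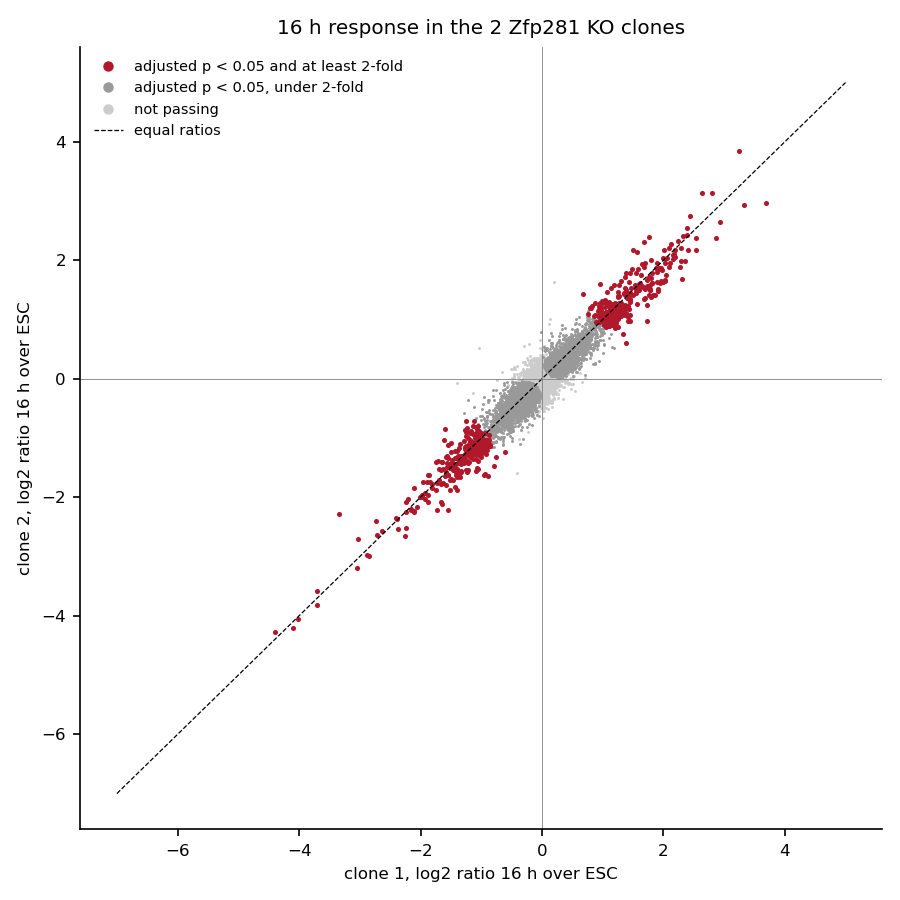
Log2 ratio of 16 h over ESC in clone 2 against that in clone 1, one point per tested gene, computed after adding 0.5 CPM, with genes that changed at least 2-fold and passed in red. The 502 red points lie along the dashed line of equal ratios, with none in the quadrants of opposite sign.

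The WT cells passed through the same tables and are set beside the KO response. They also differed from the KO clones in the share of counts from genes on the X chromosome. That share was 4.6% and 4.7% in the KO clones at 16 h and 4.7% and 4.8% at ESC. In lines WT and Zfp281_WT it was 4.0% and 3.5% at 16 h and 3.9% and 3.3% at ESC. Its part in the differences below was not tested. In WT cells 2902 of 11030 genes were higher at 16 h than at ESC and 2773 were lower (26.3% and 25.1%, or 51.5% in all), and with library totals as the only scaling the split was 2285 higher and 3343 lower. With the line WT alone, 1 library per stage and the spread taken from the KO clones, 5329 genes passed in WT cells. Of the 254 genes at least 2-fold higher in KO cells, 222 were higher, 0 lower and 32 not passing in WT cells. Of the 248 at least 2-fold lower in KO cells, 244 were lower, 1 higher and 3 not passing in WT cells. The difference of the responses, KO minus WT, was then tested in 1 model over 12 libraries. It passed for 500 genes (4.53%), with 276 positive (2.5%) and 224 negative (2.03%), and with library totals as the only scaling for 348 positive and 183 negative. Without the line Zfp281_WT, where the KO clones alone give the spread, 1044 genes passed, and without the block for lines 220. Leaving out single libraries moved the count to 1433 without line WT at 16 h and 1248 without it at ESC, to 102 without clone 1 at 16 h and 87 without it at ESC, and to 176 without clone 2 at 16 h and 106 without it at ESC.

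**Figure D4:**
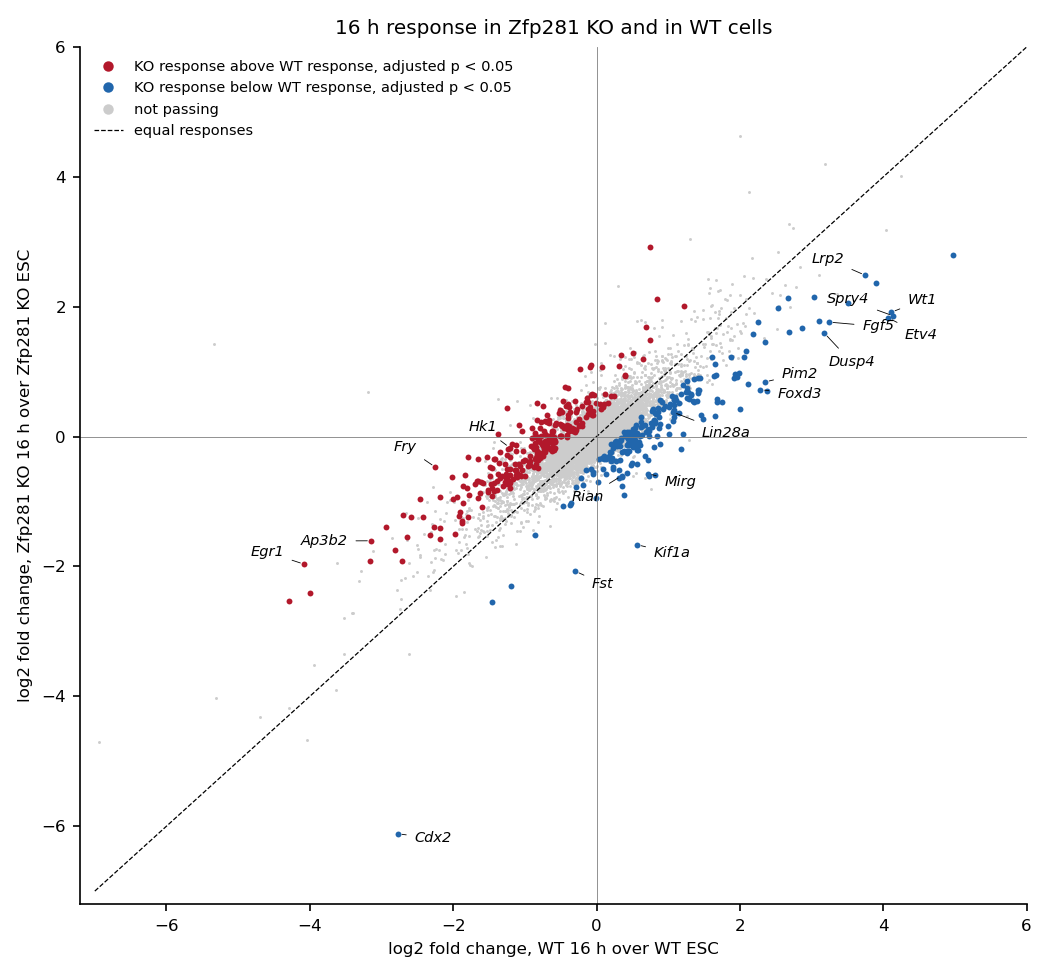
Log2 fold change of 16 h over ESC in Zfp281 KO cells (vertical) against that in WT cells (horizontal), one point per gene tested in both, with genes whose responses differed at an adjusted p under 0.05 in red (KO above WT) or blue (KO below WT) and the dashed line marking equal responses. Etv4, Spry4, Dusp4 and Fgf5 lie below the line at positive responses, Mirg, Rian and Kif1a rose in WT cells and fell in KO cells, and most genes lie near the line.

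Part of the Fgf and Erk targets had a smaller log2 response in KO cells than in WT cells. Of 16 tested, the difference was negative for 7 and positive for 1, and without the line Zfp281_WT negative for 9 and positive for 1. Without line WT at ESC 2 were positive. The 1 positive gene was Egr1, whose difference was 2.09 ± 0.41 (adjusted p = 0.0205) and 1.37 (adjusted p = 0.0151) without that line. Over the alternatives its adjusted p ran from 1.09e-11 to 0.146. It did not pass without the block for lines (adjusted p = 0.0918), with only the 8 libraries at ESC and 16 h (0.0665), without line Zfp281_WT at 16 h (0.0745), without clone 1 at 16 h (0.146), without clone 1 at ESC (0.136) and without clone 2 at ESC (0.0824).

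Etv4 had 61.3 and 66.8 CPM in KO cells at 16 h and 17.1 and 19.1 CPM in KO cells at ESC. In WT cells it had 54.7 and 57.99 CPM at 16 h, against 3.54 and 3.05 CPM at ESC. Both KO clones were above both WT lines at each stage, by a wider margin at ESC. The response was 1.83 in KO cells and 4.07 in WT cells, a difference of -2.25 ± 0.14 (adjusted p = 2.06e-05), or -2.12 without the line Zfp281_WT. Spry4 had 24.1 and 30.4 CPM in KO cells at ESC, against 3.68 and 5.67 CPM in WT cells at ESC, and its response differed by -2.29 ± 0.20 (adjusted p = 0.000356), or -2.62 without that line. Dusp4 in WT cells had 57.1 and 80.7 CPM at 16 h, against 6.03 and 9.42 CPM at ESC. Its KO libraries were lower than the WT libraries at 16 h and higher at ESC, and the difference was -1.59 ± 0.12 (adjusted p = 7.89e-05), or -1.65 without that line. Dusp6 differed by -0.89 ± 0.10 (adjusted p = 0.000864), or -0.91 without that line and Etv1 by -1.15 ± 0.14 (adjusted p = 0.00174), or -1.01 without that line. Spred3, a Sprouty-related inhibitor, was at 2.10 and 2.68 CPM in KO cells at 16 h, against 23.8 and 21.9 CPM in WT cells at 16 h. It was under 3 CPM in both KO groups and was tested only through its WT level at 16 h, so its negative difference, counted among the 7, is no independent sign of direction. That difference was -2.14 ± 0.30 (adjusted p = 0.00341), or -2.52 without that line.

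The formative list showed 10 negative and 0 positive differences among 18 tested genes, 11 negative without the line Zfp281_WT, and 5 negative without clone 2 at ESC. Of these 18 genes, 16 had been tested in KO cells. The others were tested only through their WT level, so their differences are no independent sign of direction. Foxd3 had 36.6 and 30.9 CPM in KO cells at 16 h, against 57.4 and 54.8 CPM in WT cells at 16 h. At ESC it had 21.1 and 19.9 CPM in KO cells, against 13.8 and 8.72 CPM in WT cells. The order of the genotypes was thus reversed between the stages, and the difference of response was -1.57 ± 0.21 (adjusted p = 0.00326), or -1.34 without that line. Pim2 differed by -1.51 ± 0.19 (adjusted p = 0.00196), or -1.67 without that line, Fgf5 by -1.48 ± 0.21 (adjusted p = 0.00327), or -1.47 without that line, Sox11 by -0.87 ± 0.09 (adjusted p = 0.000594), or -0.89 without that line and Grhl2 by -0.65 ± 0.08 (adjusted p = 0.00193), or -0.67 without that line. Dnmt3a in WT cells had 609 and 525 CPM at 16 h, against 139 and 126 CPM at ESC, above the KO levels at both stages. Its response differed by -0.78 ± 0.11 (adjusted p = 0.00336) and that of Dnmt3b by -0.71 ± 0.10 (adjusted p = 0.00253). Without clone 2 at ESC these 2 genes missed the threshold at -0.70 (adjusted p = 0.0524) and -0.62 (adjusted p = 0.0508), and without the line Zfp281_WT they were at -0.81 and -0.63. The lowest adjusted p over the alternatives was 8.6e-08 for Dnmt3a and 5.32e-09 for Dnmt3b. Otx2 had a difference of -0.38 ± 0.16 (adjusted p = 0.233), which did not pass, at adjusted p-values from 0.0041 to 0.618 over the alternatives, and it was -0.11 (adjusted p = 0.592) without the line Zfp281_WT. It was -0.62 without line WT at 16 h and -0.57 without it at ESC, where it passed, and -0.15 without line Zfp281_WT at 16 h and -0.20 without it at ESC. Lin28a of the general list had 96.9 and 101 CPM in KO cells at 16 h, against 824 and 855 CPM in WT cells at 16 h. It was lower in KO than in WT cells at ESC as well, so these levels do not measure the difference of response. Its response differed by -0.69 ± 0.09 (adjusted p = 0.00196), or -0.70 without the line Zfp281_WT.

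**Figure D5:**
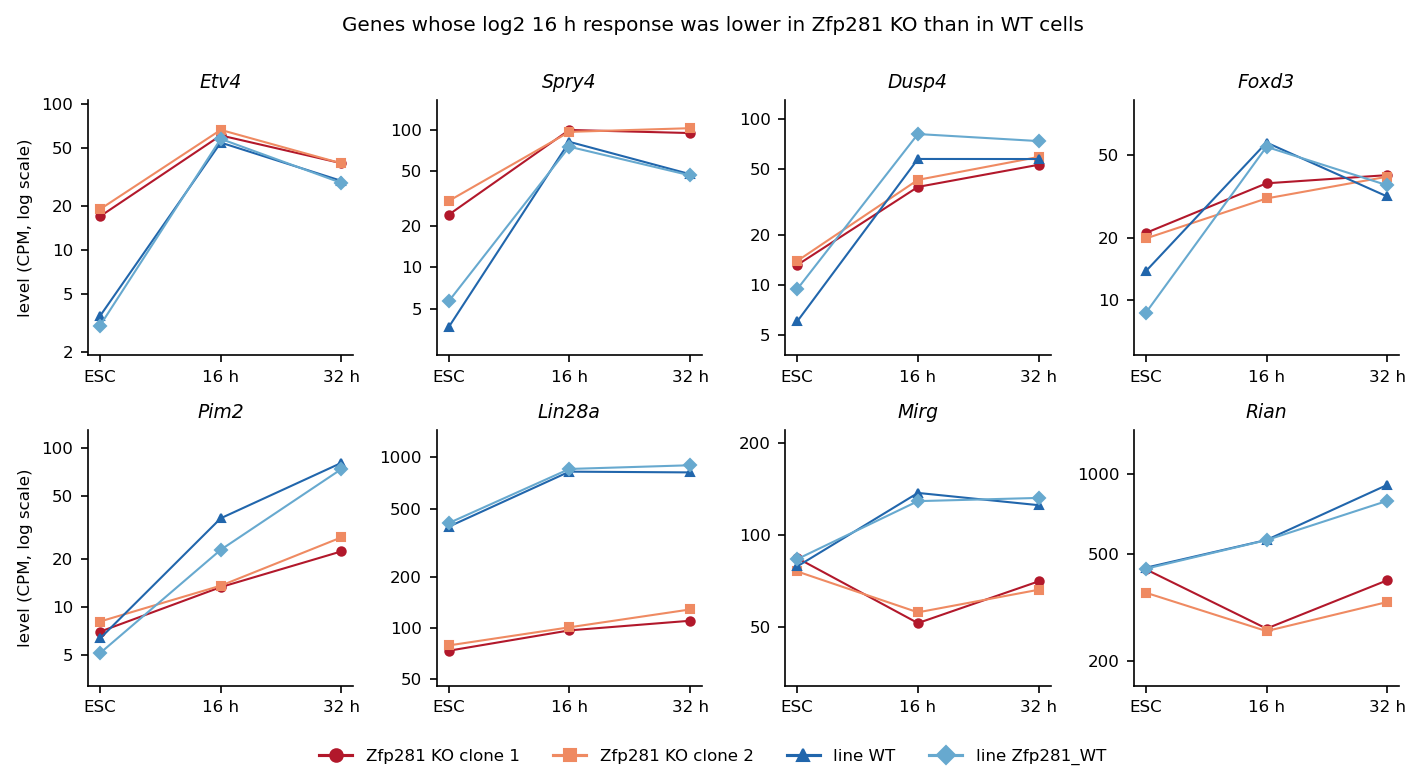
Level in CPM on a log scale at ESC, 16 h and 32 h for 8 genes, with Zfp281 KO clones in red and orange and the WT lines in blue. Etv4 and Spry4 start higher in KO cells and differ less at 16 h, Lin28a is lower in KO cells at every stage, and Mirg and Rian fall at 16 h in KO cells while they rise in WT cells.

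For naive genes the count of differences that passed moved with the libraries used. Of 22 genes 4 had a positive and 0 a negative difference, and 14 were positive without the line Zfp281_WT and 0 without the block for lines. The positive count was 12 without line WT at ESC, and 1 without line Zfp281_WT at ESC or without any 1 of the 4 KO libraries at ESC and 16 h. Without line WT at 16 h 1 was negative. Prdm14, a naive zinc finger regulator, differed by 0.90 ± 0.13 (adjusted p = 0.00338), or 0.84 without the line Zfp281_WT, but by 0.91 (adjusted p = 0.202, in a range over the alternatives from 0.0008 to 0.202) without the block for lines. Tfcp2l1 differed by 0.82 ± 0.25 (adjusted p = 0.118), Nanog by 0.59 ± 0.17 (adjusted p = 0.0862) and Esrrb by 0.71 ± 0.28 (adjusted p = 0.23). Without the line Zfp281_WT, with the spread taken from the KO clones, the values were 0.75 for Tfcp2l1, 0.60 for Nanog and 0.50 for Esrrb. With only the 8 libraries at ESC and 16 h, Tfcp2l1 (adjusted p = 0.0179) and Nanog (adjusted p = 0.0314) passed and Esrrb (adjusted p = 0.0611) did not. With no filter on level, Tfcp2l1 (adjusted p = 0.00315) and Esrrb (adjusted p = 0.0221) passed and Nanog (adjusted p = 0.114) did not. Without the block for lines the adjusted p was 0.448 for Tfcp2l1, 0.616 for Nanog and 0.406 for Esrrb. In WT cells Nanog had 308 and 220.0 CPM at 16 h, against 875 and 623 CPM at ESC, and the lines differed from each other at both stages.

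Single genes of other pathways differed as well. Axin2 fell less in KO cells, with a difference of 0.70 ± 0.10 (adjusted p = 0.00373), or 0.58 without the line Zfp281_WT. Nodal, the ligand, had 77.8 and 83.2 CPM at 16 h, against 70.4 and 70.9 CPM at ESC, in KO cells, a change of 0.19 ± 0.05 (adjusted p = 0.00763) that missed the threshold without clone 1 at ESC and without clone 2 at ESC, at adjusted p-values up to 0.156. In WT cells it had 51.96 and 35.7 CPM at 16 h, against 71.1 and 52.97 CPM at ESC, a change of -0.51 ± 0.07 (adjusted p = 7.29e-05). The difference was 0.70 ± 0.09 (adjusted p = 0.0022), or 0.64 without the line Zfp281_WT, but did not pass without the block for lines (adjusted p = 0.328, in a range over the alternatives from 1.06e-05 to 0.328). Fst had 1.64 and 1.88 CPM in KO cells at 16 h, against 6.44 and 5.41 CPM in WT cells at 16 h, with all 4 libraries at ESC between 6.90 and 7.64 CPM. Its response differed by -1.78 ± 0.21 (adjusted p = 0.0014), or -1.83 without that line. Hk1, a hexokinase, had 24.3 and 21.8 CPM in KO cells at 16 h and 27.2 and 24.8 CPM in KO cells at ESC. In WT cells it had 23.9 and 22.6 CPM at 16 h, against 49.8 and 58.1 CPM at ESC, and the responses differed by 1.03 ± 0.12 (adjusted p = 0.0014), or 0.89 without that line. Lrp2 rose less in KO cells, with a difference of -1.27 ± 0.13 (adjusted p = 0.000594), or -1.46 without that line. For Cdx2 almost no counts were left in KO cells at 16 h, so the size of its log2 difference is uncertain. Cdx2 fell further in KO cells, with a difference of -3.35 ± 0.76 (adjusted p = 0.0293), with an adjusted p between 4.82e-06 and 0.192 over the alternatives. For Cdx2 the value was -2.51 (adjusted p = 0.0534) without the line Zfp281_WT, and the threshold was also missed without any 1 of the 4 KO libraries, without that line at 16 h, without it at ESC and with only the 8 libraries at ESC and 16 h, at adjusted p-values from 0.0684 to 0.192.

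Mirg and Rian of the noncoding genes on chromosome 12 moved in opposite directions in the genotypes. Mirg had 51.5 and 55.9 CPM in KO cells at 16 h and 84.0 and 76.0 CPM in KO cells at ESC. In WT cells it had 137 and 129 CPM at 16 h, against 78.9 and 83.4 CPM at ESC. At ESC the 4 libraries lay within 76.0 to 84.0 CPM, and at 16 h both KO libraries were under the ESC range and both WT libraries above it. The difference was -1.29 ± 0.11 (adjusted p = 0.000102) for Mirg and -0.96 ± 0.11 (adjusted p = 0.000957) for Rian, and -1.37 and -0.95 without the line Zfp281_WT. Meg3 differed by -1.12 ± 0.20 (adjusted p = 0.0209), or -1.47 (adjusted p = 4.90e-08) without that line. Its adjusted p ran from 1.15e-10 to 0.130 over the alternatives, and without any 1 of the 4 KO libraries at 16 h and ESC it did not pass, at 0.13 and 0.0628 without clone 1 and clone 2 at 16 h and 0.115 and 0.0628 without them at ESC. Over all 18 imprinted genes tested, 6 differences were negative and 0 positive. Of these genes 17 had been tested in KO cells, and the other was tested only through its WT level. Leaving out clone 2 at 16 h or at ESC left 3 negative, and leaving out line WT at 16 h or at ESC added 1 positive.

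Outside the lists, Kif1a, a motor protein of axonal transport, had 5.04 and 5.47 CPM in KO cells at 16 h and 15.6 and 17.8 CPM in KO cells at ESC. In WT cells it had 15.8 and 13.7 CPM at 16 h, against 9.76 and 10.2 CPM at ESC. It was thus higher in KO than in WT cells at ESC and lower at 16 h, a difference of -2.23 ± 0.14 (adjusted p = 2.06e-05), or -2.36 without the line Zfp281_WT. Wt1, a zinc finger factor of kidney and gonad development, differed by -2.20 ± 0.29 (adjusted p = 0.00272), or -2.58 without that line. Fry and Ap3b2, a subunit of the neuronal AP-3 adaptor, fell less in KO cells, with a difference of 1.77 ± 0.25 (adjusted p = 0.00305), or 1.39 without that line and 1.53 ± 0.19 (adjusted p = 0.00174), or 1.65 without that line.

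The KO clones at 32 h share the ESC libraries with the 16 h comparison, so the values are only set side by side. ESC and 32 h libraries were deposited together and the 16 h libraries apart. Where 16 h stands apart from both other stages, time and table therefore cannot be told apart. At 32 h 6830 of 10659 genes passed against ESC (64.1%), with 379 at least 2-fold higher (3.56%) and 515 at least 2-fold lower (4.83%). Among naive genes, Tfcp2l1 changed by -1.31 at 16 h and -2.07 at 32 h, and Tbx3 by -0.98 at 16 h and -2.56 at 32 h. Zfp42, which did not pass at 16 h, was at 311 and 307 CPM at 32 h, a change of -0.67 ± 0.05 (adjusted p = 2.88e-09). Gbx2 was near its 32 h level already at 16 h, with 41.9 and 53.8 CPM at 32 h. Of the formative genes, Pou3f1 had 33.2 and 33.8 CPM at 32 h, Otx2 had 112 and 103 CPM and Dnmt3b had 481 and 428 CPM, all above their 16 h levels. Etv4 had 39.5 and 39.4 CPM at 32 h, below its 16 h level in both clones, while Spry4 had 94.8 and 103 CPM, within 1.1 times its 16 h level. Lactate dehydrogenase gene Ldha changed by -0.62 at 16 h and by 0.73 at 32 h, and Tpi1 by -0.50 at 16 h and by 0.55 at 32 h. Skil had 174 and 175 CPM at 16 h and 513 and 494 CPM at 32 h. The log2 fold changes of Meg3, Rian and Mirg were -0.33, -0.13 and -0.23 at 32 h, each closer to 0 than at 16 h.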

How the data were processed

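RNA was extracted with RNAeasy columns and libraries were made with Ribozero depletion and the ScriptSeq V2 kit for both Zfp281 KO and the matching WT cells, per the labels' protocols, and sequenced on a HiSeq2500. The protocol does not name its WT lines, and the line titled only WT was taken as one of them. The authors deposited raw read counts per gene, with Entrez identifiers, in a table of ESC and 32 h libraries and a separate table of 16 h libraries. The submitters' processing notes name GRCm38 and mm10 and the tool edgeR, while the aligner, counter and strand setting were not given in the sources used here. Without them, reads of overlapping or antisense genes and of close copies such as Zscan4d may be shared between genes.

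The tables were joined by Entrez ID, giving 24116 IDs, of which 24061 matched a RefSeq symbol (GRCm38.p6). Genes averaging 5 CPM in a compared group were tested with edgeR 4.0.16 in R 4.3.3 (TMM scaling, robust quasi-likelihood fit, Benjamini-Hochberg adjusted p under 0.05). The 16 h and 32 h responses of KO cells came from 6 KO libraries with stage and clone as terms. The WT response and the difference of responses came from 12 libraries with group and line as terms. Standard errors are the log2 fold change divided by the root of the test statistic. The clone and line block was kept because a number marks the same clone or line at each stage, and clone deviations correlated at 0.27 between ESC and 16 h, 0.26 between ESC and 32 h and 0.08 between 16 h and 32 h. Samples are clones and lines, and nothing says that a stage was repeated in separate cultures, so p-values measure only the spread between these libraries, which may be partly technical.

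In data simulated from these libraries, the KO comparison over 10659 genes recovered 94% of 1.5-fold and 100% of 2-fold changes with 11 false calls. The difference over 11030 genes recovered 57% and 92% with 10 false calls. The simulated counts had a common level per gene apart from the changes set in, and the fitted spread. They held no effect of clone, line or table, so they do not measure how calls in the real data hold against such effects.

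Alternatives were DESeq2 1.42.0, other scalings, filters and sets of libraries, fits without the block and each library left out. Genes were named by rules: listed genes, the 15 largest changes per direction among genes that passed without overlap, the 10 largest differences from WT per direction and the largest gaps between clones. The 27 lists held 396 genes, of which 1 was not found. The genes, lists and comparison were chosen with earlier results of these data known.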

Additional observations from a re-analysis of the deposited data

Results flagged for a closer look

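The results below were marked because the 16 h response of Zfp281 KO cells differed from that of WT cells by a test of the difference itself, edgeR's quasi-likelihood test on 12 libraries with a block for lines. Each value is the log2 response of KO cells minus that of WT cells, and its test stands in the report.

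Among targets and inhibitors of Fgf and Erk signalling the differences were -2.25 for Etv4, -2.29 for Spry4, -1.59 for Dusp4, -0.89 for Dusp6, -1.15 for Etv1, -2.14 for Spred3 and 2.09 for Egr1. Formative genes gave -1.57 for Foxd3, -1.51 for Pim2, -1.48 for Fgf5, -0.87 for Sox11, -0.65 for Grhl2, -0.78 for Dnmt3a and -0.71 for Dnmt3b. Pluripotency genes gave -0.69 for Lin28a and 0.90 for Prdm14, and genes of the Wnt and Nodal pathways 0.70 for Axin2, 0.70 for Nodal and -1.78 for Fst. Imprinted noncoding genes gave -0.96 for Rian, -1.29 for Mirg and -1.12 for Meg3. The remaining genes were Kif1a at -2.23, Wt1 at -2.20, Hk1 at 1.03, Fry at 1.77, Ap3b2 at 1.53, Lrp2 at -1.27 and Cdx2 at -3.35.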

How the results depend on the processing

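With 2 clones per stage the number of libraries limits the precision, and stage and table cannot be told apart. Of 136 named KO genes that passed at 16 h, 4 (Nodal, Nes, Mbd4 and Zscan4d) missed the threshold under at least 1 alternative, and the others kept direction and call, while T was not run. The count of genes passing ran from 3542 to 5504 when a library was left out. All other settings on the same 10659 tested genes gave between 4027 and 5600 genes, with 5085 without the replicate block. With edgeR's own filter 7005 of 15552 tested genes passed, and with no filter 7041 of 21589. Zfp42, which did not pass at -0.01, ran from -0.061 to 0.043 when a library was left out and changed sign at 0.043 without clone 2 at 16 h and at 0.01 without clone 2 at ESC. The difference between KO and WT responses was less stable: 220 genes passed without the replicate block, 185 with only the 8 libraries at ESC and 16 h and 1044 without the line Zfp281_WT, which leaves 1 WT library per stage, and 87 to 1433 when a library was left out. The cause was not tested. Of 29 genes named with a difference that passed, 7 lost the call under at least 1 alternative, and they are given in the report with those values. The 4 genes named with a difference that did not pass, Otx2, Tfcp2l1, Nanog and Esrrb, each passed under at least 1 alternative. Otx2 did so only where line WT was left out at 16 h or at ESC. Leaving out the replicate block ended the difference calls of Prdm14, Nodal and Egr1 and changed no other call of a named gene.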
